A study of Homo sapiens with 4 samples.

Results

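The respiratory chain genes followed here are 54 of the 58174 genes in the expression table, chosen by symbol: the 13 mRNAs that the mitochondrial genome encodes, and 41 nuclear genes for subunits and assembly factors of complexes I to IV. The nuclear members are 15 subunits of complex I, 4 of complex II, 7 of complex III, 10 of complex IV and 5 assembly factors of complex IV. Of the mitochondrial mRNAs, 7 encode subunits of complex I, 1 encodes cytochrome b of complex III, 3 encode the core of complex IV and 2 encode subunits of ATP synthase. Symbols were matched to 56 rows, since SDHD and SCO2 each have a second, overlapping gene model. The model with the higher level was used.

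The chain moves electrons from NADH (complex I) and succinate (complex II) through ubiquinone, complex III and cytochrome c to oxygen at complex IV, and the proton gradient it builds drives ATP synthase. Its subunits come from both genomes. The circular mitochondrial DNA is transcribed as long precursors from each strand that are cut into shorter RNAs, some of which hold overlapping frames. Each nuclear subunit has its own promoter and its protein is imported. Hepatocytes are rich in mitochondria, and many nuclear subunit promoters are known to carry sites for NRF1, ETS factors such as GABP, YY1 and estrogen-related receptors.

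The libraries came from LM3, a hepatocellular carcinoma cell line, in which an siRNA directed at FENDRR, a long non-coding RNA, was delivered for 48 h (si-FENDRR); from RBE, an intrahepatic cholangiocarcinoma line, given si-FENDRR; and from LM3 and RBE given a negative control siRNA (si-NC), all with a lipid reagent (Lipofectamine). There was 1 library for each line and transfection, 4 in all, so that no value below has a replicate of its own kind. Levels are FPKM, fragments per kilobase of gene scaled to the mapped total, which can be compared between genes. FENDRR was listed at 0 FPKM in all 4 libraries, so its knockdown could not be checked. FPKM summed to between 484157 and 508418 per library, and 13437 to 13682 genes reached 1 FPKM. ALB, the albumin gene, was at 35.7 and 33.3 FPKM in LM3, against 0.251 and 0.270 FPKM in RBE, and the bile duct keratin KRT7 was at 7.21 and 6.02 FPKM in LM3, against 429 and 391 FPKM in RBE (si-FENDRR, then si-NC). Other hepatocyte markers did not all follow the labels, with APOA1 at or near 0 in both lines and SERPINA1 at 56.8 and 82.5 FPKM in RBE, nor did all cholangiocyte markers, with SPP1 at 1118 and 909 FPKM in LM3, against 515 and 504 FPKM in RBE. PTPRC, CD3E, VWF and CDH5, which define leukocytes and endothelium, were at 0.143 FPKM or less, while PECAM1, another endothelial marker, was at 3.10 and 3.86 FPKM in LM3, against 0.401 and 0.408 FPKM in RBE. CD68, a lysosomal marker used for macrophages, was at 60.1 and 62.2 FPKM in LM3, against 14.2 and 13.9 FPKM in RBE. In such bulk libraries, a different number of cells with a transcript and a different amount per cell cannot be told apart.

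Some mitochondrial reading frames overlap, and the short frames at these overlaps are shown because reads from the shared bases can be counted for either gene. Sequences are the hg38 transcripts of GENCODE 29. MT-ATP8 lies at chrM:8366-8572, plus strand, 207 bases, and the capitals mark the 46 bases it shares with MT-ATP6. MT-ND4L lies at chrM:10470-10766, plus strand, 297 bases, and the capitals mark the 7 bases it shares with MT-ND4.
MT-ATP8: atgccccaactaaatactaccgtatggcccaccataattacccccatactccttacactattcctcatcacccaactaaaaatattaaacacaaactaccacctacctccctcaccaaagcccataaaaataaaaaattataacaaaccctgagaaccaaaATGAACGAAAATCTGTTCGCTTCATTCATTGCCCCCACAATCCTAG
MT-ND4L: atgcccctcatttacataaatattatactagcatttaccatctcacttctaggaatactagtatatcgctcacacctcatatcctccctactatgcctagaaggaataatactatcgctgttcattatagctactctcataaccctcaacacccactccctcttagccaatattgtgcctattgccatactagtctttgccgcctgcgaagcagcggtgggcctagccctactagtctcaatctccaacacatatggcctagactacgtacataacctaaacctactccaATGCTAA

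Promoters of the nuclear members were taken from RefSeq (GRCh38.p14), from 250 bases before to 50 after a single start per gene. That start was not always the one in the expression table, as for NDUFS3, and other starts were not searched. Promoters were found for 33 of the 41 (not NDUFB5, NDUFB9, SDHC, UQCRB, CYC1, NDUFA4, COX6C or SCO2). They were searched on both strands for exact copies of the NRF1 core GCATGCGC, the ETS site CCGGAAG, the YY1 site AAGATGGCG, the estrogen-related receptor (ERR) site TCAAGGTCA and the SP1 box GGGCGG. The ETS site was in 16 of the 33 promoters (48.5%), against 10.7% of all 27305 promoters and 19.2% of those of 9919 tested coding genes. The NRF1 core was in 5 (15.2%; 3.27% of all and 5.49% of tested coding promoters), in SDHB, SDHD, COX5B, COX6A1 and NDUFS7. The YY1 site was also in 5 (15.2%; 1.85% and 4.02%), the ERR site in SDHD alone (3.03%; 0.359% and 0.151%), and the SP1 box in 22 (66.7%; 44.6% and 70.1%). At least 1 motif was in 28 of the 33. A match describes letters and is not a bound site.

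The 4 promoters printed are those of SDHB, which held 4 of the 5 motifs; SDHD, the nuclear member that was higher in LM3; COX6A1, the most abundant nuclear member; and COX7A2, which was among the members that differed most between the lines and held no motif. They lie at chr1:17053983-17054282 (minus strand, SDHB), chr11:112086623-112086922 (plus strand, SDHD), chr12:120437863-120438162 (plus strand, COX6A1) and chr6:75250249-75250548 (minus strand, COX7A2). Capitals mark motif matches on either strand; in SDHD, copies of the NRF1 core on the 2 strands overlap in one run of capitals.
SDHB: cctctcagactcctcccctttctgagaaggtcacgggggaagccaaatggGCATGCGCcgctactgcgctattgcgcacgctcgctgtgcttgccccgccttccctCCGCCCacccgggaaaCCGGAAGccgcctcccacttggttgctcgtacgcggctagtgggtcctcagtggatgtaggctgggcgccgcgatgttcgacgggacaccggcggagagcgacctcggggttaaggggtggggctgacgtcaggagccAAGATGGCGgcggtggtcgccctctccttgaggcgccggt
SDHD: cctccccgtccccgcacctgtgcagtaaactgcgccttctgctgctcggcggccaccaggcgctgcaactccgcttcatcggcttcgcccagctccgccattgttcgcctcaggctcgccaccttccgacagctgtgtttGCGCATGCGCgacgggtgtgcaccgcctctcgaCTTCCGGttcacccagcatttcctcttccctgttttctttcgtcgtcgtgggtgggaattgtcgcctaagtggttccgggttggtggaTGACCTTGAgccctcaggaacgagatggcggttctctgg
COX6A1: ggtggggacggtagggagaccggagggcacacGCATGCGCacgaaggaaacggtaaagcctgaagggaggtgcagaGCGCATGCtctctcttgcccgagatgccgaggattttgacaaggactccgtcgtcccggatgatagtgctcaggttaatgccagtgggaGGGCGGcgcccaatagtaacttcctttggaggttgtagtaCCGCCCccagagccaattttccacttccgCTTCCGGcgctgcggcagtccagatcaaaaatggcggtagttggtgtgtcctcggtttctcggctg
COX7A2: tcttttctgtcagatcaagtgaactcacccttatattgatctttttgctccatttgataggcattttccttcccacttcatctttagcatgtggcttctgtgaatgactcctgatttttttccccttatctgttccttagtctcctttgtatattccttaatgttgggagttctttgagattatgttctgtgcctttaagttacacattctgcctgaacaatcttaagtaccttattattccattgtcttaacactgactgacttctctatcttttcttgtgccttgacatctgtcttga

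The mitochondrial mRNAs were among the most abundant transcripts. Of the 20 genes with the highest FPKM, 11 were mitochondrial mRNAs in LM3 under si-FENDRR, 11 in LM3 under si-NC, 10 in RBE under si-FENDRR and 11 in RBE under si-NC. MT-CO3, a core subunit of complex IV, was the highest of the 13 in all 4 libraries. MT-ND6, the subunit of complex I read from the other strand, was the lowest in 3 of them, and MT-ND5 was the lowest in RBE under si-NC. The 13 mRNAs added up to 17.6% of all FPKM in LM3 under si-FENDRR, 15.1% in LM3 under si-NC, 16.6% in RBE under si-FENDRR and 18.3% in RBE under si-NC.

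**Figure D1:**
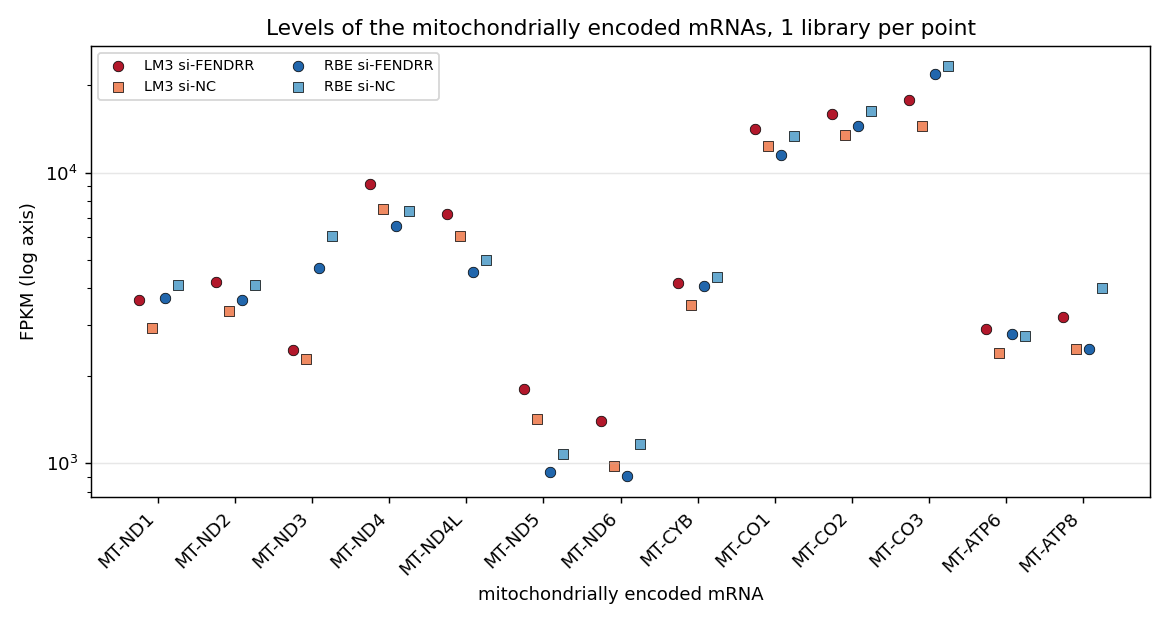
FPKM (log axis) of each of the 13 mitochondrially encoded mRNAs, with 1 point per library (circles si-FENDRR, squares si-NC, red LM3, blue RBE). The LM3 circles stand above the LM3 squares for all 13, and the RBE circles stand below the RBE squares for all except MT-ATP6.

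Against si-NC, si-FENDRR went with higher mitochondrial mRNA levels in LM3 and lower ones in RBE, and neither difference could be tested within a line. The 13 mRNAs summed to 87817 FPKM under si-FENDRR against 73209 FPKM under si-NC in LM3, a ratio of 1.20. In RBE they summed to 82289 FPKM under si-FENDRR against 92973 FPKM under si-NC, a ratio of 0.885. In LM3 all 13 were higher under si-FENDRR, by 0.10 to 0.52 on the log2(FPKM + 1) scale (median 0.29), where 48.1% of the 15930 tested genes were higher and the median of all was 0.00. In RBE 12 of 13 were lower under si-FENDRR, where 42.9% of tested genes were lower. The RBE differences ran between -0.69 and 0.02, with a median of -0.17 against 0.02 for all genes. Thus 12 of the 13 were higher in LM3 and lower in RBE, a pattern that 20.1% of tested genes had. With median-of-ratios scaling all 13 had it, and the share of tested genes under that scaling was not counted. The 13 are cut from shared precursors and some of their frames overlap, so they are not independent measurements.

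The 3 core subunits of complex IV had log2 differences of 0.19 to 0.29 in LM3 and of -0.22 to -0.08 in RBE. MT-CO1, which holds the oxygen-binding site, was at 14084 FPKM under si-FENDRR against 12316 under si-NC in LM3, while RBE had 11533 FPKM under si-FENDRR against 13397 under si-NC. MT-CO2, which receives electrons from cytochrome c, was at 15865 FPKM under si-FENDRR against 13524 under si-NC in LM3, while RBE had 14493 FPKM under si-FENDRR against 16285 under si-NC. MT-CO3 was at 17741 FPKM under si-FENDRR against 14472 under si-NC in LM3, while RBE had 21919.7 FPKM under si-FENDRR against 23208 under si-NC. For each of the 3, si-FENDRR was the higher library in LM3 and the lower in RBE. Together they held 54.3% of the mitochondrial mRNA level under si-FENDRR against 55.1% under si-NC in LM3, and in RBE 58.3% under si-FENDRR against 56.9% under si-NC.

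Among the complex I mRNAs, MT-ND6 had the widest gap, with 1404 FPKM under si-FENDRR against 979.6 under si-NC in LM3, and 905 under si-FENDRR against 1165 under si-NC in RBE. Its log2 differences were 0.52 in LM3 and -0.36 in RBE. MT-ND6 lies on the other strand, and whether the libraries kept strands apart is not given. All 7 complex I mRNAs were higher under si-FENDRR in LM3 and lower in RBE. MT-ND5, a proton-pumping subunit, was at 1807 FPKM under si-FENDRR against 1422 under si-NC in LM3, while RBE had 938 FPKM under si-FENDRR against 1081 under si-NC. MT-ND3 was at 2455 FPKM under si-FENDRR against 2288 under si-NC in LM3, while RBE had 4698 FPKM under si-FENDRR against 6079.8 under si-NC, so that both RBE libraries stood above both LM3 libraries. For MT-ND4 and MT-ND4L the highest library was LM3 under si-FENDRR. MT-ND4, a large proton-pumping subunit, was at 9152 FPKM under si-FENDRR against 7495 under si-NC in LM3, while RBE had 6541 FPKM under si-FENDRR against 7393 under si-NC. MT-ND4L, which shares an end with it, was at 7185 FPKM under si-FENDRR against 6064 under si-NC in LM3, while RBE had 4566 FPKM under si-FENDRR against 5021 under si-NC. The membrane subunit MT-ND1 was at 3651 FPKM under si-FENDRR against 2918 under si-NC in LM3, while RBE had 3716 FPKM under si-FENDRR against 4118 under si-NC. MT-ND2, a proton-pumping subunit, was at 4192 FPKM under si-FENDRR against 3349 under si-NC in LM3, while RBE had 3643 FPKM under si-FENDRR against 4096 under si-NC. Both differed by 0.32 in LM3, and by -0.15 (MT-ND1) and -0.17 (MT-ND2) in RBE.

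The remaining frames differed in the same directions, with 1 exception. MT-CYB, the cytochrome b of complex III, was at 4181 FPKM under si-FENDRR against 3508 under si-NC in LM3, while RBE had 4080.2 FPKM under si-FENDRR against 4386 under si-NC. MT-ATP6, part of the proton channel of ATP synthase, was at 2908 FPKM under si-FENDRR against 2402 under si-NC in LM3, while RBE had 2782 FPKM under si-FENDRR against 2743 under si-NC, and it was the one mRNA that was not lower in RBE, a sign that turned with median-of-ratios scaling (log2 difference -0.013) and also when its nuclear copy MTATP6P1 was added (4322 FPKM under si-FENDRR against 4403 under si-NC). MT-ATP8, which overlaps it as shown above, was at 3193 FPKM under si-FENDRR against 2471 under si-NC in LM3, while RBE had 2473 FPKM under si-FENDRR against 4001 under si-NC. Its log2 difference of -0.69 in RBE was the lowest of the 13. MT-ATP8 is the shortest of the frames and shares 46 of its 207 bases with its neighbour, and the part of that in its value was not tested.

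The mitochondrial rRNAs, which are no members, differed in the same directions: MT-RNR1 and MT-RNR2 summed to 8078 FPKM under si-FENDRR against 6176 under si-NC in LM3 (ratio 1.31), and in RBE to 11598 FPKM under si-FENDRR against 12473 under si-NC (ratio 0.930). Nuclear DNA holds near copies of mitochondrial genes that can take their reads. MTATP6P1 on chromosome 1 is 98.5% identical to MT-ATP6 and was at 1749 FPKM under si-FENDRR against 1384 under si-NC in LM3, while RBE had 1540.4 FPKM under si-FENDRR against 1660 under si-NC, which is 55.4% to 60.5% of the level of MT-ATP6. MTND2P28 stood at 13.9% to 17.1% of MT-ND2 and MTCO1P12 at 5.82% to 8.16% of MT-CO1, and the other copies at 3.24% or less. With all copies looked at here added, the ratio of the sums was 1.21 in LM3 and 0.886 in RBE.

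Per unit of nuclear subunit mRNA, the mitochondrial mRNA level was 27.1 under si-FENDRR against 21.2 under si-NC in LM3, and 16.9 under si-FENDRR against 19.5 under si-NC in RBE. The 36 nuclear subunits themselves summed to 3244 FPKM under si-FENDRR against 3458 under si-NC in LM3, and in RBE to 4857 FPKM under si-FENDRR against 4772 under si-NC. The median log2 difference of the 41 nuclear members was -0.06 in LM3 and 0.00 in RBE, close to the medians of all genes. In LM3 29 of 41 were lower under si-FENDRR, where 7929 of the 15930 tested genes were. In RBE 20 of 41 were lower, where 6833 of the 15930 (42.9%) were.

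With the lines as replicates, no member passed the test for the transfection. In limma across 15930 genes, 0 of 54 members had an adjusted p under 0.05, beside a background of 0.0% (0 genes). At an unadjusted p under 0.05 there were 657 of the 15930 genes, among them 3 of the 54 members (SCO2, UQCRB and NDUFB9). The count of members is to be read against the share of all genes. The smallest adjusted p was 0.473 over all genes and 0.533 among members. In both lines, 8 of 54 members stood higher under si-FENDRR (background 26.9%) and 15 stood lower (background 21.8%). Another 17 were higher in LM3 and lower in RBE (background 20.1%), and 14 were lower in LM3 and higher in RBE (background 26.9%). The 8 complex I subunits that were lower in both lines were 53.3% of the 15 nuclear ones. With median-of-ratios scaling, 5 members were higher and 20 lower in both lines, and the shares of all genes were not counted. That scaling divided si-FENDRR by more than si-NC in each line (1.047 against 1.020 in LM3, 0.978 against 0.956 in RBE).

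**Figure D2:**
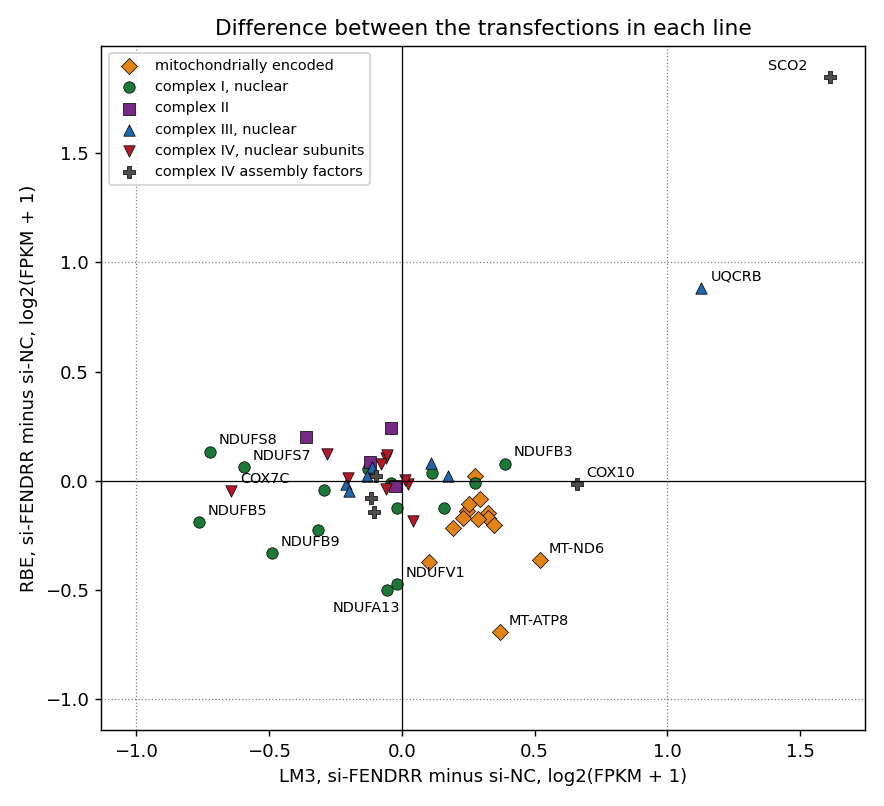
Difference between si-FENDRR and si-NC for the 54 members, LM3 on the x axis and RBE on the y axis, as log2(FPKM + 1), 1 point per gene; dotted lines mark 2-fold. SCO2 and UQCRB stand apart at the upper right (1.61 and 1.13 in LM3), and 12 of the 13 mitochondrially encoded mRNAs lie at the lower right.

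At least 2-fold differences were few. In LM3 2 members were at least 2-fold higher under si-FENDRR (background 1.19%) and 0 at least 2-fold lower (background 0.942%). In RBE 1 was at least 2-fold higher (background 0.879%) and 0 were lower (background 0.873%). At 1.5-fold in either direction, 7 members differed in LM3 (background 7.97%) and 3 in RBE (background 6.27%).

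SCO2, a copper chaperone for the assembly of complex IV, was at 17.2 FPKM under si-FENDRR against 4.95 under si-NC in LM3, while RBE had 17.4 FPKM under si-FENDRR against 4.12 under si-NC. Both si-FENDRR libraries stood above both si-NC libraries, 3.47-fold in LM3 and 4.24-fold in RBE. How many of all tested genes were separated in this way was not counted. The fitted log2 difference was 1.73 ± 0.13 (SE), with an adjusted p of 0.533. The gene (ENSG00000130489) lies at chr22:50523568-50525606 on the minus strand, and a second model of the same symbol covers its exons. That model was at 1.77 FPKM under si-FENDRR against 0.405 under si-NC in LM3, while RBE had 1.10 FPKM under si-FENDRR against 0.279 under si-NC. TYMP, on the same strand, shares exon bases with the second model and was at 4.58 FPKM under si-FENDRR against 5.86 under si-NC in LM3, while RBE had 0.539 FPKM under si-FENDRR against 0.336 under si-NC. U62317.3 shares exon bases with both models on the other strand, and whether strands were kept apart is not given. How reads were divided between these models is not given either.

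UQCRB, a small subunit of complex III (ENSG00000156467, chr8:96225920-96235634, minus strand), was at 86.7 FPKM under si-FENDRR against 39.1 under si-NC in LM3, while RBE had 63.1 FPKM under si-FENDRR against 33.8 under si-NC. The 2 groups did not overlap, and the ratios were 2.22 in LM3 and 1.87 in RBE. The share of all tested genes with such a separation was not counted. The fitted log2 difference was 1.01 ± 0.12 (SE), with an adjusted p of 0.948. No other gene shares its exons on its strand, and its pseudogene UQCRBP1 was at 1.17 FPKM or less. AP003465.1 shares exon bases with it on the other strand, and whether strands were kept apart is not given. The other complex III subunits were close between transfections: UQCRFS1, the Rieske iron-sulfur protein, was at 47.4 FPKM under si-FENDRR against 41.8 under si-NC in LM3, while RBE had 42.0 FPKM under si-FENDRR against 41.4 under si-NC, and the core protein UQCRC2 at 59.1 FPKM under si-FENDRR against 54.7 under si-NC in LM3, while RBE had 104 FPKM under si-FENDRR against 98.6 under si-NC. The 6 complex III subunits other than UQCRB had log2 differences between -0.21 and 0.18 in LM3 and between -0.04 and 0.08 in RBE.

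**Figure D3:**
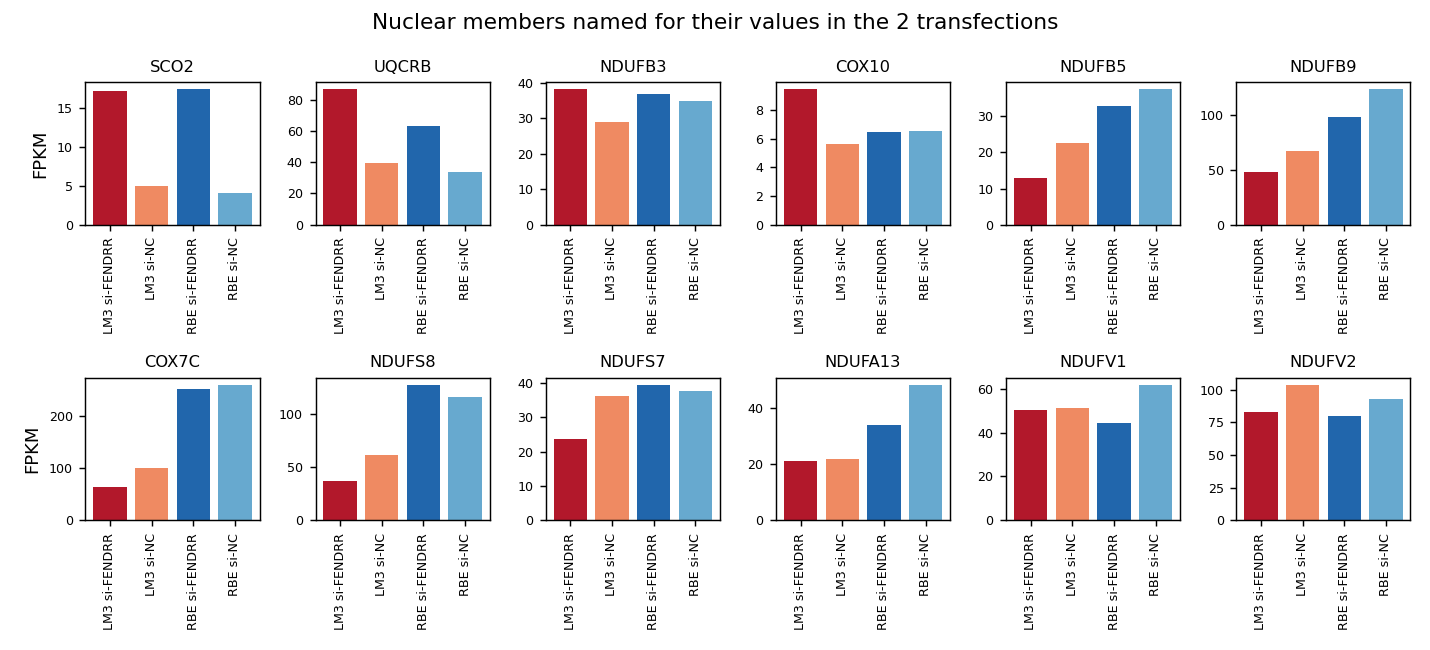
FPKM of 12 nuclear members in the 4 libraries, 1 library per bar, each panel with its own axis from 0. SCO2 and UQCRB are higher under si-FENDRR in both lines, and the complex I subunits NDUFB5 and NDUFB9 are lower in both.

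The complex I subunits with the largest differences were lower under si-FENDRR. NDUFB5, an accessory subunit of the membrane arm, was at 12.9 FPKM under si-FENDRR against 22.6 under si-NC in LM3, while RBE had 32.8 FPKM under si-FENDRR against 37.6 under si-NC. NDUFB9, another, was at 47.7 FPKM under si-FENDRR against 67.4 under si-NC in LM3, while RBE had 97.9 FPKM under si-FENDRR against 123 under si-NC. Fitted log2 differences were -0.48 ± 0.18 and -0.41 ± 0.11 (SE), with an adjusted p of 0.959 for each. NDUFA13, an accessory subunit also studied as GRIM-19, was at 21.0 FPKM under si-FENDRR against 21.8 under si-NC in LM3, while RBE had 33.7 FPKM under si-FENDRR against 48.1 under si-NC, so its difference stood mainly in RBE. NDUFV2, a subunit with an iron-sulfur cluster and the most abundant nuclear complex I member, was at 83.2 FPKM under si-FENDRR against 104 under si-NC in LM3, while RBE had 79.7 FPKM under si-FENDRR against 93.3 under si-NC. NDUFV1, which binds NADH, was at 50.3 FPKM under si-FENDRR against 50.9 under si-NC in LM3, while RBE had 44.2 FPKM under si-FENDRR against 61.7 under si-NC. NDUFB3, a small accessory subunit, was higher under si-FENDRR in both, at 38.2 FPKM under si-FENDRR against 28.96 under si-NC in LM3, while RBE had 36.9 FPKM under si-FENDRR against 34.9 under si-NC.

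The subunits NDUFS7 and NDUFS8, which hold iron-sulfur clusters on the path to ubiquinone, had opposite signs in the lines. NDUFS8 was at 36.8 FPKM under si-FENDRR against 61.4 under si-NC in LM3, while RBE had 128 FPKM under si-FENDRR against 117 under si-NC. NDUFS7 was at 23.6 FPKM under si-FENDRR against 36.1 under si-NC in LM3, while RBE had 39.5 FPKM under si-FENDRR against 37.8 under si-NC. For both, the LM3 si-FENDRR library was the lowest of the 4. In complex IV, COX7C was lowest in the same library, with 63.8 FPKM under si-FENDRR against 100 under si-NC in LM3, while RBE had 252 FPKM under si-FENDRR against 260 under si-NC. COX10, which makes the heme A precursor, was at 9.46 FPKM under si-FENDRR against 5.62 under si-NC in LM3, while RBE had 6.46 FPKM under si-FENDRR against 6.53 under si-NC. Of the complex II subunits, SDHC, a membrane anchor, was at 14.7 FPKM under si-FENDRR against 15.1 under si-NC in LM3, while RBE had 22.6 FPKM under si-FENDRR against 18.9 under si-NC. Over the 4, the lowest log2 difference was -0.36 (SDHA in LM3) and the highest 0.24 (SDHC in RBE).

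The nuclear members were mostly lower in LM3 than in RBE. In what follows, each pair of values of a line is its si-FENDRR library and then its si-NC library. Of the 54 members, 27 passed the test for the line (background 58.7%): 3 were higher in LM3 (background 32.3%) and 24 were higher in RBE (background 26.4%). Among the 41 nuclear members the counts were 1 and 22, so that 53.7% were higher in RBE. The median log2 difference, LM3 minus RBE, was -0.47 for the nuclear members, -0.06 for the mitochondrial mRNAs and 0.09 for all genes. Of the 28 nuclear members whose exons no other gene shares on their strand, 15 (53.6%) were higher in RBE. Some of them, such as NDUFA2 and SURF1, share exon bases with genes on the other strand. Whether strands were kept apart is not given. Since a line is represented by 1 library of each transfection, the test measures how alike the line difference was in both transfections. The count of 27 became 17 without the LM3 si-FENDRR library, 21 without LM3 si-NC, 13 without RBE si-FENDRR and 11 without RBE si-NC. These fits also had no transfection term and 1 residual degree of freedom, and the line left with 1 library was assumed to vary like the other. With all 4 libraries and no transfection term the count was 31 (33.0% of all genes higher in LM3, 27.6% in RBE). With a library left out, the shares of all genes called higher in LM3 and in RBE were lower than with all 4. Then 10 members were called whichever library was left out: SDHD, higher in LM3, and NDUFA2, NDUFS3, UQCRC2, UQCRH, NDUFA4, COX5A, COX7A2, SURF1 and COX15, higher in RBE.

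**Figure D4:**
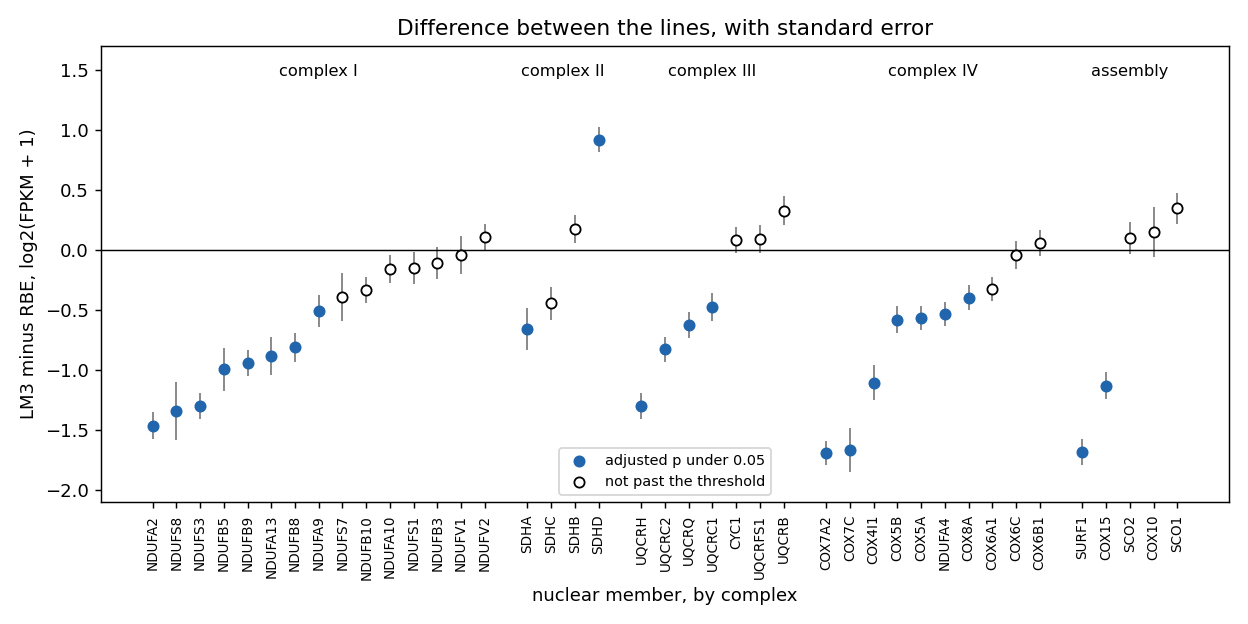
Difference between the lines, LM3 minus RBE in log2(FPKM + 1), for the 41 nuclear members by complex, with the limma standard error as bars; filled points passed an adjusted p of 0.05. The filled points lie below 0 except SDHD, at 0.92.

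In complex IV, 7 of 10 nuclear subunits were higher in RBE and none in LM3. COX7A2, a small subunit, was at 42.9 and 44.8 FPKM in LM3, against 142 and 146 FPKM in RBE, and its log2 difference was -1.69 ± 0.10 (SE, adjusted p 0.00167). COX7C, with the levels given above, differed by -1.66 ± 0.18 (adjusted p 0.00466), though this call was lost without either RBE library. COX6A1, the most abundant nuclear member, was at 663 and 691 FPKM in LM3, against 879 and 818 FPKM in RBE, and did not pass (adjusted p 0.0572). Of the assembly factors, SURF1, mutated in Leigh syndrome, was at 20.6 and 22.3 FPKM in LM3, against 67.4 and 74.4 FPKM in RBE (-1.68 ± 0.11, adjusted p 0.00181). COX15, which completes heme A, was at 15.9 and 17.3 FPKM in LM3, against 36.5 and 38.5 FPKM in RBE (adjusted p 0.00382). SCO1, SCO2 and COX10 did not pass, and SCO1 was the least abundant nuclear member on average, at 4.97 to 6.91 FPKM.

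In complex I, 8 of 15 nuclear subunits were higher in RBE and none in LM3. NDUFA2, an accessory subunit of the peripheral arm, was at 30.7 and 33.7 FPKM in LM3, against 92.1 and 88.8 FPKM in RBE, a log2 difference of -1.46 ± 0.12 (adjusted p 0.00253). NDUFS8 differed by -1.34 ± 0.24 (adjusted p 0.0143), a call lost without either RBE library. NDUFA9, the least abundant, was at 10.9 and 9.70 FPKM in LM3, against 14.4 and 15.8 FPKM in RBE (-0.51 ± 0.14, adjusted p 0.0387), a call that was lost whichever library was left out. In complex III, 4 of 7 were higher in RBE, led by the hinge protein gene UQCRH with 145 and 157 FPKM in LM3 and 382 and 365 FPKM in RBE (-1.30 ± 0.11, adjusted p 0.00275).

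Complex II was divided. SDHD, a membrane anchor (ENSG00000204370, chr11:112086773-112120013, plus strand), was at 72.9 and 74.3 FPKM in LM3, against 38.1 and 38.8 FPKM in RBE. It was the 1 nuclear member that was higher in LM3 (0.92 ± 0.11, adjusted p 0.0052). Its second gene model stood at 0.239 FPKM or less. SDHA, the flavoprotein of the same complex, was at 34.7 and 44.8 FPKM in LM3, against 67.3 and 58.4 FPKM in RBE and was higher in RBE (-0.66 ± 0.18, adjusted p 0.0397), a call that did not hold in every case with 1 library left out. SDHB and SDHC did not pass.

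Of the mitochondrial mRNAs, MT-ND4L (0.46 ± 0.13, adjusted p 0.0432) and MT-ND5 (0.67 ± 0.17, adjusted p 0.0324) were higher in LM3. MT-ND3 (-1.17 ± 0.15, adjusted p 0.00639) and MT-CO3 (-0.49 ± 0.13, adjusted p 0.0348) were higher in RBE. The other 9 did not pass. With 1 library left out at a time, MT-ND3 was called without RBE si-FENDRR and not in the other 3 cases, MT-ND5 was called without LM3 si-NC and not in the other 3 cases, and MT-ND4L and MT-CO3 were called in 0 of the 4 cases.

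Genes of the same pathway outside the 54 were read from 12 lists of other subunits, assembly factors, ATP synthase, electron carriers and mitochondrial gene expression, with 142 of 148 genes tested. For the transfection 0 passed in limma. Of the 142, 3 had an unadjusted p under 0.05, beside 657 of all 15930 tested genes. In the si-FENDRR library of each line, 39 (27.5%) stood higher and 40 (28.2%) lower, beside 26.9% and 21.8% of all genes. For the line, 33 (23.2%) were higher in LM3 and 46 (32.4%) in RBE, beside 32.3% and 26.4% of all genes. The counts of the single lists are to be read against the same shares. Among the other complex I subunits 4 of 22 were higher in LM3 and 10 in RBE, among nuclear ATP synthase subunits 1 of 16 and 8, and among complex III subunits and assembly factors 1 of 7 and 5. ATP5B, the catalytic beta subunit of ATP synthase, was at 180 and 189 FPKM in LM3, against 548 and 574 FPKM in RBE (-1.60 ± 0.10, adjusted p 0.00164). Of the factors that transcribe and maintain mitochondrial DNA, 5 of 15 were higher in LM3 and 4 in RBE, and of the RNA processing factors 5 of 15 and 1. PPARGC1A, the coactivator of mitochondrial biogenesis, was at 0.0236 and 0.0207 FPKM in LM3, against 2.54 and 2.60 FPKM in RBE (-1.80 ± 0.15, adjusted p 0.00267). COX7B2, an isoform of a complex IV subunit known from testis, was at 31.3 and 31.2 FPKM in LM3 and was listed at 0 in both RBE libraries.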

How the data were processed

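RNA of the 4 cultures was extracted with Trizol and made into mRNA libraries, per the labels' protocols. HISAT2, FastQC and hg38 are named in the submitters' processing notes, while neither the program that computed FPKM nor its strand setting was stated in the labels. The authors deposited FPKM per gene, and 4 single-library files held the same values as the table. Low values were not whole multiples of a common step (3.07% to 4.29% within 0.02), so depth is unknown and no counting interval is given.

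Here log2(FPKM + 1) of the 15930 genes with at least 1 FPKM in any library was fitted with limma 3.58.1 (R 4.3.3, trended prior) with terms for transfection and line, leaving 1 residual degree of freedom, with Benjamini-Hochberg adjustment over all genes and a threshold of 0.05. All 54 members passed the filter. Terms were checked on simulated data. Within a line there is no test, and 2-fold is counted on the FPKM + 1 scale. Members start and end as in GENCODE 29 for 52 of the 54. Alternatives were other pseudocounts, scalings, filters, priors, terms and libraries left out. P-values measure only the spread between these libraries, which may be technical.

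The members and lists were chosen with earlier results of these data known. Named nuclear members are the 5 highest and 5 lowest of the same sign in both lines, the 3 highest and lowest in each line, the 3 most opposite, the 6 most different per direction between the lines among those called, the most and least abundant of each complex and the 5 assembly factors. NDUFS3, NDUFA4, COX5A and SDHA were named after their values were seen. From the pathway lists, named genes are among the 2 highest and 2 lowest of a list for the line.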

Additional observations from a re-analysis of the deposited data

Results flagged for a closer look

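These results had opposite signs in the lines, with 1 library per line and transfection, and the difference between the lines was not tested. The summed mitochondrial mRNA level had a ratio of si-FENDRR to si-NC of 1.20 in LM3 and 0.885 in RBE, a gap of 0.44 on the log2 scale. The gap between the log2 differences of LM3 and RBE was 0.88 for MT-ND6 and 1.06 for MT-ATP8, both higher under si-FENDRR in LM3 and lower in RBE. The gap was 0.68 for COX10, which was higher under si-FENDRR in LM3 and near 0 in RBE. It was -0.66 for NDUFS7 and -0.86 for NDUFS8, both lower under si-FENDRR in LM3 and slightly higher in RBE.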

How the results depend on the processing

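No member passed for the transfection under any of the 9 alternatives to the limma fit. The line count of 27 lay between 19 and 31 under other pseudocounts, scalings, filters, priors and without a transfection term, and between 11 and 21 with 1 library left out; those fits also had no transfection term and 1 residual degree of freedom, with the single library of a line assumed to vary like the other line. Those higher in LM3 numbered 1 to 2 and those higher in RBE 10 to 19 with 1 library left out, and 1 was higher in LM3 with no filter on low values, where 13.2% of 34399 genes were. Leaving out a library also lowered the share of all genes called higher in RBE, to between 16.6% and 19.0%. Among the nuclear members, 10 (24.4%) to 19 (46.3%) were then called higher in RBE. The share of all genes called higher in LM3 also fell with a library left out. With no filter, 13.2% of all genes were called higher in LM3 and 11.1% in RBE, beside 32.3% and 26.4% in the main fit. Under the other alternatives with all libraries these shares were 29.5% to 33.0% and 23.8% to 29.6%. The counts of members are to be read against these shares. At 1.5-fold, 7 members differed in LM3 (7.97% of all genes) and 3 in RBE (6.27%). With median-of-ratios scaling 5 members stood higher in the si-FENDRR library of each line, and the share of all genes under that scaling was not counted. The median log2 difference of the nuclear members in RBE, close to 0, was -0.0013 with scaling to the sum without MT- genes and -0.029 with median-of-ratios scaling. The ratio of the mitochondrial sums stayed between 1.17 and 1.21 in LM3 and between 0.865 and 0.907 in RBE under all scalings and with nuclear copies added. For the named members called for the line, 179 of 221 alternative values kept direction and side of the threshold, 42 kept the direction only, and 0 reversed. The causes were not tested. The transfections were compared within lines, since the cell line was a term of the fit, and without that term 0 members were called; the labels give no replicate numbers. The transfection could not be tested with a library left out, since no residual degree of freedom remained.

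Adding nuclear copies and setting apart members with shared exons were chosen after seeing the data. Unknown depth and single libraries limit every value, most of all the lowest ones, such as SCO1.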

Other observations

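The 11 nuclear copies of mitochondrial genes looked at here were all higher under si-FENDRR in LM3, where 48.1% of tested genes were higher. For each of the 11, the log2 difference there was larger than that of the gene it copies. Some copies were near the floor, and their direction carries little weight. MTND4LP1 passed 1 FPKM only in LM3 under si-FENDRR (2.07 FPKM, against 0.450 FPKM under si-NC). Over the 10 copies above 0 in every library, the log2 differences lay between 0.34 and 1.38 in LM3 and between -0.26 and 0.03 in RBE. MTCO3P12 was at 175 FPKM under si-FENDRR against 66.6 under si-NC in LM3, while RBE had 93.2 FPKM under si-FENDRR against 96.8 under si-NC, and it is 98.2% identical to MT-CO3 over its length. Reads of the mitochondrial genes and of such copies were not separated here.

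Of the 142 tested pathway genes outside the 54, 3 differed at least 2-fold in 1 line, and they were picked after their values were seen. In LM3, 1 was higher under si-FENDRR (background 1.19%) and 1 was lower (background 0.942%). In RBE, 1 was higher (background 0.879%). HIGD1A, a complex IV factor known from hypoxia, was at 63.6 FPKM under si-FENDRR against 30.7 under si-NC in LM3. Its levels in RBE were 27.8 FPKM under si-FENDRR against 24.4 under si-NC. ATP5F1, a stalk subunit of ATP synthase, was at 26.5 FPKM under si-FENDRR against 58.7 under si-NC in LM3. RBE had the opposite sign, with 162 FPKM under si-FENDRR against 153 under si-NC. ESRRA, an estrogen-related receptor, was at 24.8 FPKM under si-FENDRR against 11.2 under si-NC in RBE. LM3 had the opposite sign for ESRRA, with 34.4 FPKM under si-FENDRR against 39.4 under si-NC. These had no test within a line, and 0 of the 3 passed for the transfection over both lines in limma.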
